A study of Mus musculus with 2 samples.

Results

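The secretory genes of the lung epithelium were followed here through single-cell RNA sequencing of lungs from mice in a model of metastatic breast cancer. The group held 8 of the 32285 listed genes. They were chosen by symbol, with the difference between the nanoparticle and saline libraries already known, so every difference between the libraries is a description and supports nothing by itself. The 4 club cell genes were Scgb1a1, Scgb3a1, Scgb3a2 and Cyp2f2, and the 4 surfactant genes were Sftpc, Sftpb, Sftpa1 and Sftpd. All 8 were found in both count matrices.

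Female BALB/cJ mice aged 12 weeks all received 100000 4T1 cells, a mouse mammary carcinoma line that spreads to the lung. The study's methods name the line as 4T1-luc2-tdTomato, which carries luciferase and tdTomato reporters. From day 1 they were given either intravenous saline or intravenous nanoparticles (NPs) of the polymer PLG with no drug cargo, at intervals of 3 days. Lungs were taken on day 14, and each condition gave 1 library. The labels give 4 pooled mice for it and the study's methods 5. There was no group without a tumor, and with 1 library per condition no test, p-value or standard error was possible. All intervals are exact 95% intervals and cover counting error only, not the spread between mice.

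Club cells line the small airways, secrete secretoglobin proteins into the airway fluid and carry cytochrome P450 enzymes that oxidize inhaled chemicals. Alveolar type 2 cells line the gas exchange surface and secrete surfactant, a film of lipid and protein that keeps the air spaces open. Secretory transcripts of both cells are so abundant that they also reach droplets without a cell when tissue is dissociated. A droplet library therefore reports them in intact cells and as free RNA.

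The libraries held 91168129 (saline) and 90081747 (NP) unique molecular identifiers (UMIs), each a captured transcript molecule. A barcode was kept as a cell when it had 500 to 5000 detected genes and a mitochondrial share under 7.5%, which gave 8662 saline and 8333 NP cells, with 21 barcodes kept in both. Barcodes with under 50 UMIs, 1734692 and 1719390 of them, were taken as free RNA and held 4350835 and 4421248 UMIs. Neutrophil-like cells made up 65.1% of saline and 37.6% of NP cells, and endothelial-like cells numbered 467 and 1628, so the libraries differed in makeup as well as in these genes.

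Upstream sequence was matched for 4 of the 8 members, in the RefSeq promoter table for GRCm38.p6. It is shown as sequence only, and its part in the differences between the libraries was not tested. Scgb1a1, Scgb3a2, Sftpc and Sftpd had no entry. All 4 stretches are on the plus strand, read 5′ to 3′, and end before the first annotated base of the gene. Capitals mark matches on either strand to the core motif of NKX2-1, the lung epithelial transcription factor (CTCAAG), or to the FOXA motif (TGTTTNC). In the order shown they cover chr11:49663345-49663594, chr7:27119705-27119908, chr6:72304360-72304609 and chr14:41131538-41131781.
Scgb3a1: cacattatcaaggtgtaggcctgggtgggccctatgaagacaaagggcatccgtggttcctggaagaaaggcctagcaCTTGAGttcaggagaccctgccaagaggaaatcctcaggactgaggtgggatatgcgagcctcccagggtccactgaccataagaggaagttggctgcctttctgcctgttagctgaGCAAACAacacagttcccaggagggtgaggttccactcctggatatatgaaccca
Cyp2f2: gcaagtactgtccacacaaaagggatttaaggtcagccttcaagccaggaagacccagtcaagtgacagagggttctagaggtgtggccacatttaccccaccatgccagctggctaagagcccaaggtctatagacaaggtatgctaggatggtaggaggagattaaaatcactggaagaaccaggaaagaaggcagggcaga
Sftpb: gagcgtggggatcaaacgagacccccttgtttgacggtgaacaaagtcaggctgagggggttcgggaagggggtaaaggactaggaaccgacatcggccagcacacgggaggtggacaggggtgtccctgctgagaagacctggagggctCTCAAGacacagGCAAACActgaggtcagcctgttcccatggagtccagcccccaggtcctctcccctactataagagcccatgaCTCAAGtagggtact
Sftpa1: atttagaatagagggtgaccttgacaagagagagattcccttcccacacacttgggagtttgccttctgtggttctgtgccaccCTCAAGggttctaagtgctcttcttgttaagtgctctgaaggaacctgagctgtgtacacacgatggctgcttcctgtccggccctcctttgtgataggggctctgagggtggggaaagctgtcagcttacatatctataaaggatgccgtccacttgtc

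The NKX2-1 core stood 2 times before Sftpb, 1 time before Sftpa1, 1 time before Scgb3a1 and 0 times before Cyp2f2. Among the 250 bases before each of 32851 genes in the table, 13.3% of promoters held it. The FOXA motif stood 1 time before Sftpb and 1 time before Scgb3a1, and 17.8% of promoters held it. No match to the C/EBP motif TTGCNNAA, held by 9.56% of promoters, was found in the 4 stretches. No capitals overlap, and a match describes letters in this window only. The Cyp2f2 and Sftpa1 stretches held 204 and 244 bases, fewer than the 250 bases behind the shares of promoters. Scgb1a1 lies at chr19:9083636-9087958 on the minus strand with 3 exons, and Sftpc at chr14:70520949-70524081 on the minus strand with 6 exons (GENCODE, GRCm38).

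Over the whole libraries the club and surfactant genes differed in opposite directions. Scgb1a1, which encodes the main secretoglobin of club cells, had 284276 UMIs with saline and 31237 with NPs. As counts per 1000000 UMIs of the library (CPM) this was 3118 (3107 to 3130) and 347 (343 to 351), 8.99-fold lower with NPs, a log2 ratio of −3.17 (−3.19 to −3.15). Scgb3a2, another airway secretoglobin, had 2370 and 996 UMIs, a log2 ratio of −1.23 (−1.34 to −1.13). Cyp2f2, the P450 of club cells that activates naphthalene, had 921 and 342, a log2 ratio of −1.41 (−1.60 to −1.23). The fourth club gene went the other way. Scgb3a1 had 948 UMIs in the saline and 3787 in the NP library, a log2 ratio of 2.02 (1.91 to 2.12).

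Sftpc encodes the surfactant protein C of type 2 cells and had 87553 UMIs in the saline and 258403 in the NP library, 960 and 2869 CPM. Its level was 2.99-fold higher with NPs, a log2 ratio of 1.58 (1.57 to 1.59). Sftpb, whose product spreads surfactant lipid, had 4357 and 13196 UMIs, a log2 ratio of 1.62 (1.57 to 1.67). The collectin genes Sftpa1 and Sftpd, whose products bind microbes, had 12214 and 36046 UMIs (log2 ratio 1.58, 1.55 to 1.61) and 2604 and 6105 UMIs (1.25, 1.18 to 1.31). The ratios of the 4 surfactant genes thus lay between 1.25 and 1.62, and Sftpc made up 82.0% of their UMIs in the saline and 82.4% in the NP library.

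Summed, the club genes were 7.84-fold lower with NPs (288515 and 36362 UMIs) and the surfactant genes 2.98-fold higher (106728 and 313750). The sum of all 8 members hardly differed, at 395243 and 350112 UMIs, a log2 ratio of −0.16 (−0.16 to −0.15). The club gene sum is nearly all Scgb1a1, which made up 98.5% of it in the saline and 85.9% in the NP library. Without Scgb1a1 the other 3 club genes had 4239 and 5125 UMIs, a log2 ratio of 0.29, but a single NP barcode held 2492 of the 5125. Without the top barcode of each library they had 3600 and 2633 UMIs, and the ratio turned to −0.44 (−0.51 to −0.36). Among 12408 genes with at least 200 UMIs, 11.5% were more than 2-fold higher and 0.951% more than 2-fold lower with NPs, with a median log2 ratio of 0.37. Of the members, 5 were more than 2-fold higher and 3 lower, and since this contrast was known when they were chosen, nothing is read from these counts. In these sums over a whole library, fewer cells of a type and less RNA per cell cannot be told apart.

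**Figure D1:**
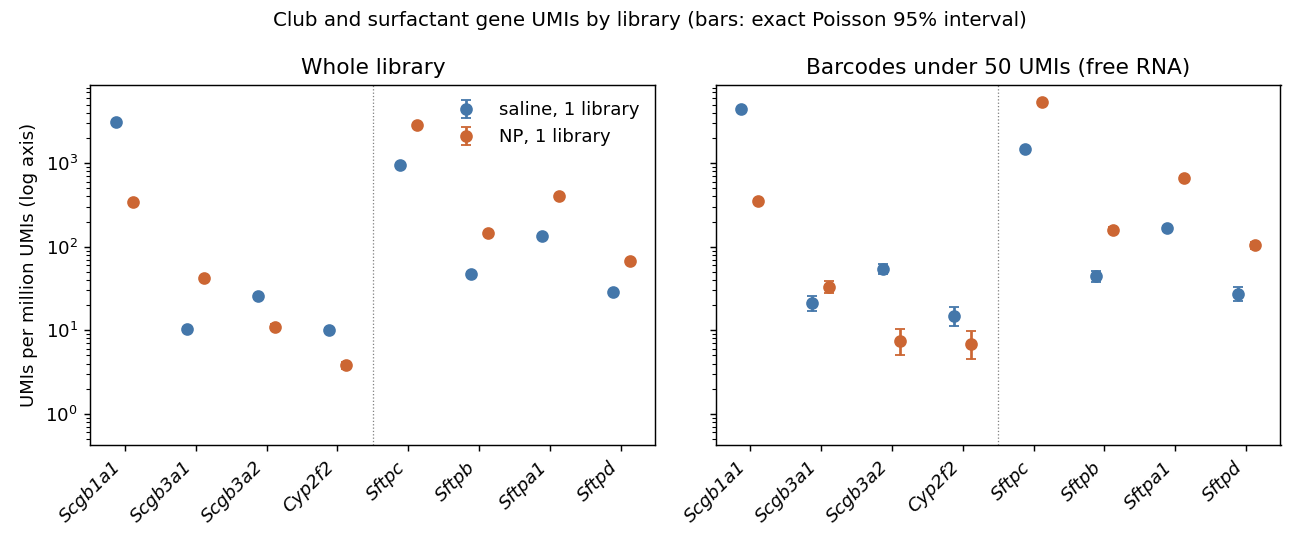
Counts per 1000000 UMIs (log axis) of the 8 members in the saline and NP libraries, over the whole library on the left and over barcodes with under 50 UMIs on the right. Points are 1 library each and bars are exact Poisson 95% intervals, and the NP points lie below the saline points for Scgb1a1, Scgb3a2 and Cyp2f2 and above them for Scgb3a1 and the 4 surfactant genes in both panels.

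The same directions were found in free RNA. Scgb1a1 had 19270 UMIs in saline barcodes with under 50 UMIs and 1557 in NP barcodes, a log2 ratio of −3.65 (−3.73 to −3.58). It was the lowest ratio of the 486 genes with at least 2000 UMIs there, below Saa3 (−1.95) and Stfa2 (−1.73), which are acute phase and neutrophil genes. At the other end Sftpa1 had the highest ratio of the 486, with 721 and 2952 UMIs and a log2 ratio of 2.01 (1.89 to 2.13). Sftpc had the third highest ratio, with 6337 and 23925 UMIs and 1.89 (1.85 to 1.93), beside the endothelial genes Ramp2 (1.97) and Cldn5 (1.84).

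Sftpb had 192 and 704 free UMIs, and Sftpd had 119 and 458. Their log2 ratios were 1.85 (1.62 to 2.09) and 1.92 (1.63 to 2.22). Scgb3a2 had 235 and 33, a log2 ratio of −2.86 (−3.43 to −2.33). Cyp2f2 had 64 and 30 (−1.12, −1.79 to −0.47), and Scgb3a1 had 92 and 146 (0.64, 0.26 to 1.04). The free RNA ratio of Scgb3a1 was thus well under its ratio in the whole library. In free RNA the club genes together gave −3.50 (−3.57 to −3.43) and the surfactant genes 1.90 (1.87 to 1.94). Of 4111 genes with at least 200 free UMIs, 5.98% were more than 2-fold higher and 0.681% more than 2-fold lower with NPs, with a median of 0.24. Of the 7 members with that many, 4 were higher and 2 lower by this measure.

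Member UMIs varied with the depth of the barcode. In barcodes with 20 to 49 UMIs, club genes reached 8892 CPM in the saline and 651 CPM in the NP library, and surfactant genes 2632 and 11209 CPM. In barcodes with 1 to 4 UMIs the same levels were 2671 and 269 CPM for club genes and 1293 and 3923 CPM for surfactant genes. Club genes were lower with NPs in all 13 depth ranges. Surfactant genes were higher with NPs in 9 of them and lower in the 4 ranges that span 200 to 4999 UMIs, for example 3036 against 1240 CPM at 500 to 999 UMIs. In that range 10 barcodes held 91.6% of the saline and 34.7% of the NP surfactant UMIs. Over the 4 ranges the top 10 barcodes held 70.6% to 91.6% of the saline and 19.4% to 55.3% of the NP surfactant UMIs, so the saline levels there rested on few barcodes. Without the top 10 barcodes of each range and library, surfactant genes were higher with NPs in all 13 ranges. Club genes were then still lower in all 13.

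**Figure D2:**
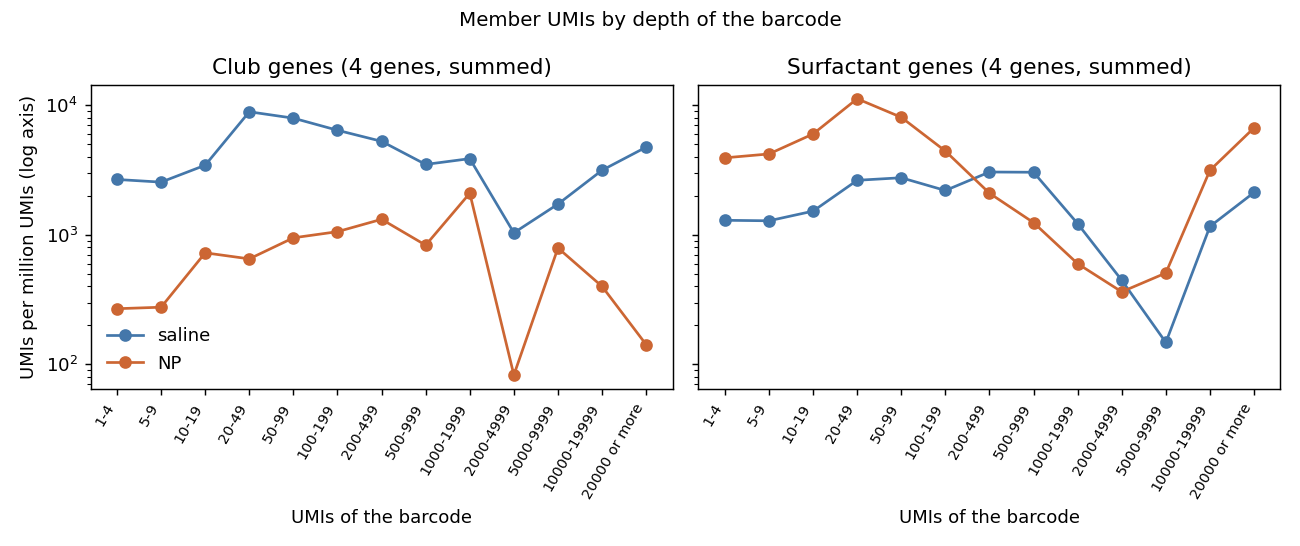
Club genes (left) and surfactant genes (right) in counts per 1000000 UMIs (log axis) against the UMI count of the barcode, for the saline and NP libraries. The saline line lies above the NP line at every depth for club genes, whereas the surfactant lines cross at 200 to 499 UMIs and again at 5000 to 9999 UMIs.

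Within kept cells the members sat almost wholly in 1 cluster. It held 52 saline cells, 0.600% of the kept cells (0.449% to 0.787%), and 51 NP cells, 0.612% (0.456% to 0.804%). The cluster was found without the 8 members and was epithelial-like by its markers. At least 3 of the 11 general epithelial markers such as Epcam and the keratins were detected in 49 of its saline and 49 of its NP cells. Over all kept barcodes, 124 with saline and 160 with NPs had at least 3 of them. Among barcodes left out as cells, 20 saline and 64 NP barcodes over 5000 genes and 7 and 37 with 7.5% or more mitochondrial UMIs also had at least 3. Counted in, they gave 151 and 261 such barcodes, of which 26 and 68 had at least 100 Sftpc UMIs and 27 and 7 at least 100 Scgb1a1 UMIs. It held 198527 of the 207749 Scgb1a1 UMIs of saline cells (95.6%) and 20505 of 21353 in NP cells (96.0%). For Sftpc its share was 97.5% in both libraries, and for Sftpb, Sftpa1, Sftpd and Scgb3a2 it was 97.0% to 98.9%. Cyp2f2 was at 93.0% and 87.9%. Scgb3a1 was apart again, with 86 of 557 saline UMIs (15.4%) and 1940 of 3042 NP UMIs (63.8%) in this cluster.

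By number of cells and as a share of all kept cells, the epithelial-like cluster was thus of nearly the same size in the libraries under these filters. That share also rests on the other classes, as neutrophil-like cells were 65.1% of saline and 37.6% of NP cells. The filters left out more NP than saline barcodes with epithelial markers, and with a mitochondrial limit of 5% the cluster held 48 saline and 26 NP cells. However, the cells inside the cluster were not of the same kinds. In the saline library 24 of them had at least 100 Scgb1a1 UMIs, and in the NP library 5. At least 100 Sftpc UMIs were found in 25 saline and 42 NP cells. Only 1 saline cell and 0 NP cells had both, so high counts of these 2 genes were rarely found in the same cell.

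Among the cells with at least 100 Scgb1a1 UMIs, the saline counts had a median of 6166.5 (154 to 36013) and the NP counts a median of 962 (321 to 10485). Scgb1a1 was over 50% of all UMIs in 16 of the 24 saline cells and in 2 of the 5 NP cells. The cells with at least 100 Sftpc UMIs had a median of 2240 Sftpc UMIs in the saline library (115 to 5126) and 3864.5 in the NP library (454 to 6859). As a share of the cell's UMIs this was a median of 20.5% and 19.9%, close to the same in both libraries. These cells had medians of 15511 and 19556 UMIs over all genes.

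Sub-clustering split the epithelial-like cells by leading genes other than the members. Sub-cluster 1, led by the complement gene Hc and by Slc34a2, Scd1, Abca3 and Lamp3, genes of phosphate and lipid handling in type 2 cells, had 14 saline and 32 NP cells. Its cells had a median of 2851 Sftpc UMIs in the saline and 3976 in the NP library, 18.5% and 20.7% of the cell's UMIs. Sub-cluster 2, led by Cldn10, Prdx6, Hp and the glutathione transferase gene Gsta3, had 21 saline and 3 NP cells. It held 194479 and 19377 of the Scgb1a1 UMIs, with medians of 8088 and 7930 per cell, 73.9% and 79.6% of the cell's UMIs. Surfactant genes other than Sftpc were also detected in it. Of its 21 saline cells, 17 had Sftpb (132 UMIs), 15 Sftpa1 (146 UMIs), 17 Sftpd (86 UMIs) and 6 Sftpc (24 UMIs). The part of free RNA in these counts was not tested. At other clustering resolutions the sub-cluster with the most Scgb1a1 held 20 to 24 saline and 2 to 7 NP cells. Its highest cell carried 36013 Scgb1a1 UMIs of 46529 in the saline library and 10485 of 13024 in the NP library.

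The other sub-clusters were small. Sub-cluster 6, led by Tmem212, Dynlrb2 and other genes of motile cilia, had 3 cells in each library and held 86 and 47 Cyp2f2 UMIs, against 175 and 54 in sub-cluster 2. Sub-cluster 3 (6 and 7 cells) was led by the endothelial genes Cldn5 and Ly6c1, and sub-cluster 5 (4 and 3 cells) by the neutrophil genes S100a8 and S100a9, with medians of 1660.5 and 3086 Sftpc UMIs in the first and of 1129.5 and 3677 in the second. Doublets were not removed, and their part in these cells was not tested. Sub-cluster 4 (4 and 3 cells) was led by Rab9 and Gclc and had few mitochondrial UMIs.

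**Figure D3:**
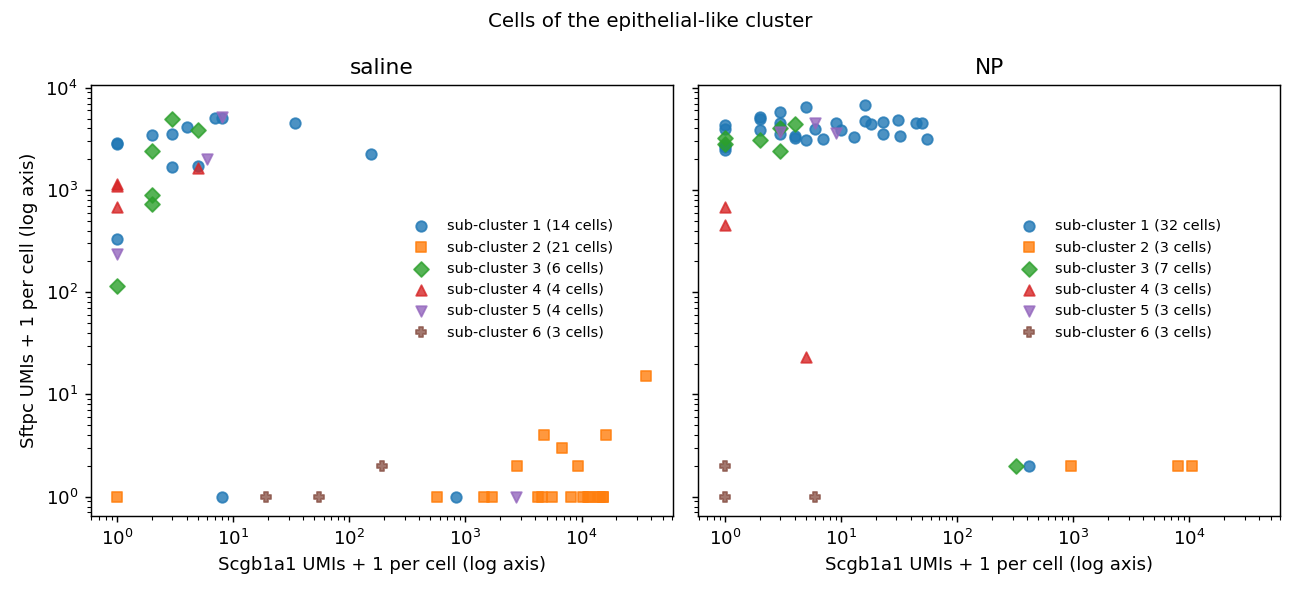
Sftpc UMIs against Scgb1a1 UMIs (both plus 1, log axes) in each of the 52 saline and 51 NP cells of the epithelial-like cluster, with symbols for the 6 sub-clusters. High Scgb1a1 and high Sftpc lie on separate axes, with 21 saline and 3 NP cells in sub-cluster 2 and 14 and 32 in sub-cluster 1.

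Most Scgb1a1-rich cells had few mitochondrial UMIs, and so did some Sftpc-rich cells. In sub-cluster 2 the median mitochondrial share was 0.063% in the saline and 0.12% in the NP library, against 4.55% and 5.47% in sub-cluster 1. Of the 24 saline cells with at least 100 Scgb1a1 UMIs, 20 had under 1% mitochondrial UMIs, as did 3 of the 5 NP cells. Of the cells with at least 100 Sftpc UMIs, 6 of 25 saline and 2 of 42 NP cells were under 1%, among them 3 saline cells of sub-cluster 4 with 1082 to 1624 Sftpc UMIs and 0 Malat1 UMIs. Malat1, a nuclear RNA, was at 1824 (saline) and 152 CPM (NP) in the cells with at least 100 Scgb1a1 UMIs. In those with at least 100 Sftpc UMIs it was at 13338 and 14020 CPM. The saline value of the Scgb1a1-rich cells rested largely on 1 cell of sub-cluster 6, which held 454 of their 573 Malat1 UMIs. Saline cells of sub-cluster 2 held 9. The part of cell damage in the values of either gene was not tested.

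A few barcodes carried most Scgb1a1. The top 10 barcodes held 60.5% of it in the saline and 80.4% in the NP library, and the first alone 12.7% and 33.6%. For Sftpc the top 10 held 50.9% and 20.5%. Leaving out the barcode with the most Scgb1a1 in each library moved its log2 ratio from −3.17 to −3.56. For Scgb3a2 the same step moved it from −1.23 to −2.37, and for Cyp2f2 from −1.41 to −0.98. A saline barcode with over 5000 genes held 327 of the 921 Cyp2f2 UMIs.

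In the NP library 1 cell of 9233 UMIs in sub-cluster 2 held 1846 of the 3787 Scgb3a1 UMIs and 622 of the 996 Scgb3a2 UMIs, with 962 of Scgb1a1 and 3.73% mitochondrial UMIs. In the saline library the highest cell for Scgb3a1 had 78 UMIs of 2238. Without the top barcode of each library the log2 ratio of Scgb3a1 was 1.18 (1.06 to 1.29), against 2.02 with it. The NP cell of 9233 UMIs thus held 48.7% of the Scgb3a1 and 62.45% of the Scgb3a2 UMIs of its library.

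Outside the epithelial-like cluster, Scgb1a1 and Sftpc were found at a low level in every large class. Over 11 classes, with the highest cell of each left out, Scgb1a1 was at 0.294 to 0.891 UMIs per cell in the saline library (median 0.510) and at 0 to 0.161 in the NP library (median 0.0702). Sftpc was at 0 to 0.273 (median 0.145) in the saline and at 0.316 to 0.677 (median 0.463) in the NP library. Both genes were chosen with this contrast known, and how many of all genes would show such ranges was not counted. Nothing is therefore read from the gap between the ranges of the libraries. The classes of a condition come from 1 library and are not replicates. The lowest Sftpc levels were those of basophils, with 21 saline and 39 NP cells. In the saline library the level of Scgb1a1 was highest in interstitial macrophages and lowest in plasmacytoid dendritic cells, 2 classes of 65 and 18 cells.

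**Figure D4:**
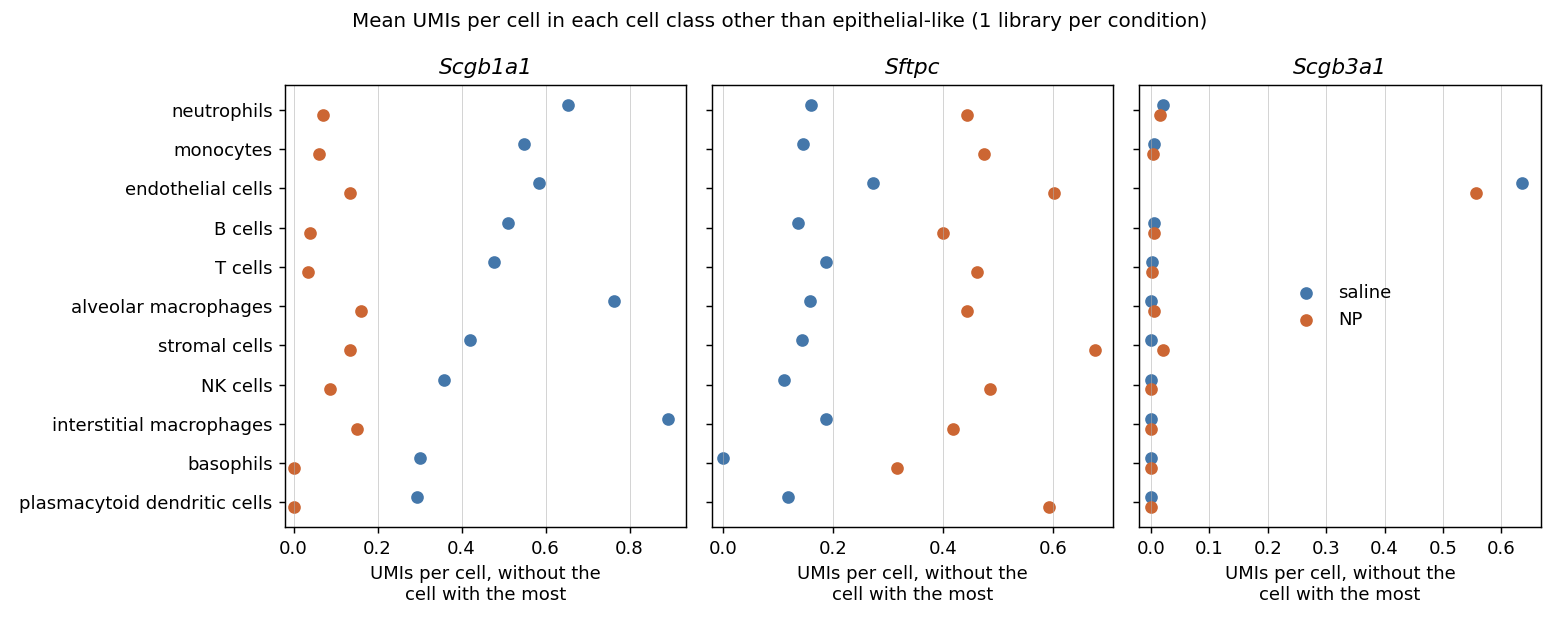
UMIs per cell of Scgb1a1, Sftpc and Scgb3a1 in 11 cell classes other than the epithelial-like cluster, for the saline and NP libraries, with the highest cell of each class left out. Saline points lie to the right of NP points in every class for Scgb1a1 and to their left for Sftpc, and Scgb3a1 is above 0.1 only in endothelial cells, at 0.635 and 0.557.

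Neutrophil-like cells had 7510 Scgb1a1 UMIs in 5638 saline cells and 304 in 3135 NP cells, 158 and 12.8 CPM of the class, a log2 ratio of −3.62 (−3.79 to −3.46). A single saline cell held 3831 of the 7510, and without the highest cell of each library the ratio was −3.06 (−3.26 to −2.86). The club genes together gave −3.37 (−3.52 to −3.22), and −2.41 when every neutrophil had equal weight. Sftpc had 955 and 1401 UMIs there, a log2 ratio of 1.56 (1.44 to 1.68), and Sftpa1 had 126 and 190 (1.60, 1.27 to 1.93). Of 7196 genes with at least 200 UMIs in neutrophils, 1.85% were more than 2-fold higher and 0.584% more than 2-fold lower with NPs.

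Monocyte-like cells had 487 Scgb1a1 UMIs in 865 saline cells and 112 in 1624 NP cells, a log2 ratio of −2.95 (−3.26 to −2.65). Their Sftpc UMIs were 129 and 777, a log2 ratio of 1.76 (1.49 to 2.04). Of 8333 genes in this class, 1.61% were higher and 0.48% lower by over 2-fold. In B cell-like cells Scgb1a1 had 279 UMIs in 521 saline and 25 in 627 NP cells, a log2 ratio of −3.55 (−4.21 to −2.96). Sftpc had 74 and 255 there (1.71, 1.33 to 2.11). Of 3968 genes in this class, 0.126% were higher and 1.29% lower by over 2-fold. In each of these classes both genes went the same way as in free RNA. The genes were chosen with this contrast known and the classes share the libraries, so nothing is read from this.

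Levels in these classes were small beside free RNA. With the highest cell left out, Scgb1a1 CPM in neutrophils was 1.74% of its free RNA CPM in the saline and 2.63% in the NP library, and in monocytes 0.802% and 1.17%. For Sftpc it was 1.29% and 1.09% in neutrophils and 0.642% and 0.599% in monocytes. The mix of the 2 genes also differed between the libraries in each class. Scgb1a1 was 75.3% of Scgb1a1 plus Sftpc in saline free RNA, 76.1% in the epithelial-like cluster, 79.4% in neutrophils, 78.6% in monocytes and 78.2% in B cells, with the highest cell of each of these 3 classes left out. In the NP library the same shares were 6.11%, 11.3%, 13.6%, 11.2% and 9.06%. With the highest cell left out, the NP share was further from free RNA in alveolar macrophages (26.1%, 19.0% to 34.2%), stromal cells (22.4%, 16.3% to 29.4%) and endothelial cells (18.8%, 16.6% to 21.1%), where the saline shares were 81.3%, 77.1% and 68.4%. How much of this RNA was made in the cells of each class was not tested.

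Counted by cells, a Scgb1a1 UMI was detected in 33.9% (32.7% to 35.2%) of neutrophils with saline and in 4.53% (3.83% to 5.32%) with NPs, at median depths of 6016 and 5217 UMIs. T cells had 32.6% (28.5% to 36.9%) and 3.61% (2.03% to 5.88%), at 6283 and 6490 UMIs. With each cell thinned to 1000 UMIs, which left out 9 saline and 2 NP neutrophils, the neutrophil shares were 7.53% (6.86% to 8.25%) and 1.02% (0.700% to 1.44%). For Sftpc the neutrophil shares were 12.1% (11.2% to 12.96%) and 32.4% (30.8% to 34.1%) without thinning, and 2.58% and 8.75% thinned. Without thinning, the Scgb1a1 shares of neutrophils and T cells had overlapping intervals in both libraries. Endothelial cells had 33.6% (29.3% to 38.1%) with saline and 9.21% (7.85% to 10.7%) with NPs. Monocytes had 36.8% (33.5% to 40.1%) and 5.54% (4.48% to 6.77%). The saline shares were thus close, at median depths of 3148 UMIs in endothelial cells and 15349 in monocytes. The thinned shares were less even across classes, and the part of depth in this was not tested. Thinned, endothelial cells were above neutrophils, at 12.9% (9.90% to 16.5%) with saline and 2.95% (2.15% to 3.94%) with NPs. Monocytes were below them with saline, at 4.86% (3.52% to 6.51%), and had an overlapping interval with NPs, at 0.374% (0.137% to 0.812%). Whether this RNA was made in the cells was not tested, so these shares are not read as expression.

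Scgb3a1 followed another pattern. Among the named classes outside the epithelial-like cluster it was at its highest in endothelial-like cells. They had 339 Scgb3a1 UMIs in 467 saline cells and 991 in 1628 NP cells, or 0.726 and 0.609 per cell. A Scgb3a1 UMI was found in 18.2% (14.8% to 22.0%) of saline and 14.7% (12.996% to 16.5%) of NP endothelial cells, at median depths of 3148 and 3230 UMIs. In neutrophils, which are deeper, it was found in 1.74% (1.41% to 2.11%) and 1.53% (1.13% to 2.02%). Thinned to 1000 UMIs, which left out 42 saline and 136 NP endothelial cells, the endothelial shares were 9.65% (7.01% to 12.9%) and 7.57% (6.28% to 9.04%), and the neutrophil shares 0.409% and 0.287%. With the highest cell left out, endothelial CPM was 646% of the free RNA CPM in the saline and 373% in the NP library, against at most 11.3% in the other named classes outside the epithelial-like cluster. Unnamed cells were not all low. A cluster that the naming rule kept out of the endothelial-like class had 31 Scgb3a1 UMIs in 10 of its 57 NP cells. Its 12 saline cells held 1 Scgb3a1 UMI.

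Per UMI of the class, Scgb3a1 in endothelial cells did not differ much between the libraries, with a log2 ratio of −0.21 (−0.39 to −0.03), and −0.15 (−0.34 to 0.05) without the highest cells. Scgb1a1, Sftpc and Sftpa1 went the same way as in free RNA. Scgb1a1 had 288 and 227 endothelial UMIs, a log2 ratio of −2.10 (−2.36 to −1.85), and Sftpc had 133 and 1059 (1.23, 0.97 to 1.503), while Sftpa1 had 6 and 122 (2.58, 1.42 to 4.06). For Scgb3a2 (1 and 5 UMIs), Cyp2f2 (2 and 4), Sftpb (8 and 46) and Sftpd (5 and 26) the endothelial intervals spanned 0. Of 6284 genes in this class, 0.955% were higher and 0.716% lower by over 2-fold. With Scgb3a1 in the sum, the endothelial ratio of the club genes was −0.80 (−0.94 to −0.66), and without it −2.06. Of the 3787 Scgb3a1 UMIs in the NP library, 991 were thus in endothelial cells and 1846 in the 1 epithelial-like cell, and of the 948 saline UMIs 339 were in endothelial cells.

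The share of cells with a Scgb3a1 UMI differed between endothelial sub-clusters, and so did their depth. These shares are unthinned and rise with depth. Median depths (saline and NP) were 4176 and 5104 UMIs in sub-cluster 9 and 6287 and 7998 in sub-cluster 10. They were only 1147 and 1315.5 in sub-cluster 8 and 1157.5 and 1254 in sub-cluster 3, so low shares there are not read as less use of the gene. In sub-cluster 9, led by Atp13a3, Esm1 and the chemokine gene Cxcl12, a Scgb3a1 UMI was found in 10 of 17 saline cells (58.8%, 32.9% to 81.6%) and in 32 of 69 NP cells (46.4%, 34.3% to 58.8%), with 44 and 261 UMIs. In sub-cluster 4, led by Gbp4, Tap1 and Cd74 of interferon response and antigen presentation, it was in 9 of 16 saline cells (56.3%, 29.9% to 80.2%) and in 38 of 223 NP cells (17.0%, 12.4% to 22.6%). In sub-cluster 10, led by Vwf and Slc6a2, none of the 13 saline and none of the 47 NP cells had one (0 and 0), which allows a share of up to 23.1% and 6.38% by a floor of 3 cells, with exact upper limits of 24.7% and 7.55%. Sub-cluster 8, with Ednrb and Car4 of aerocyte capillaries among its leading genes, had it in 0 of 27 and in 1 of 70 cells, where 0 allows up to 11.1% by the floor and 12.8% by the exact limit. Sub-clusters 1, 2, 3 and 5 had it in 8.33% to 26.0% of their cells in either library. Sub-cluster 5 (55 saline and 180 NP cells) was led by the alveolar type 1 gene Ager and by Inmt and Gsn of the stromal marker list. The part of other cells in it was not tested. In sub-clusters 6, 7 and 11 a single cell held 42 of 65 NP UMIs, 73 of 100 NP UMIs and 40 of 44 saline UMIs in turn. Sub-clusters 7, 12 and 13 were led by genes of neutrophils (S100a8), monocytes (Lyz2) and B cells (Igkc), and the part of doublets in them was not tested. They had a Scgb3a1 UMI in 9 of 43, 2 of 6 and 4 of 5 saline cells and in 8 of 88, 5 of 22 and 2 of 22 NP cells.

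**Figure D5:**
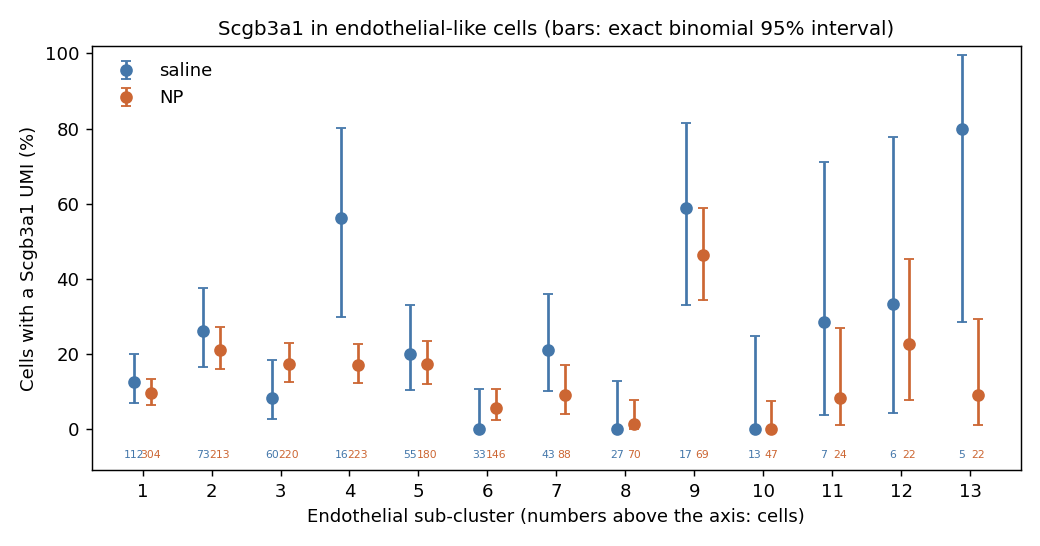
Percentage of cells with a Scgb3a1 UMI in 13 endothelial sub-clusters of the saline and NP libraries, with exact binomial 95% intervals and the number of cells above the axis. Sub-cluster 9 is at 58.8% (saline) and 46.4% (NP), sub-cluster 4 at 56.3% and 17.0%, and sub-cluster 10 at 0 in both libraries.

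By likeness over 22 profiles (11 classes in each library), the genes closest to Scgb1a1 among 11828 were Scgb3a2, Wfdc2, Cyp2f2, Cbr2 and Fgfbp1 (Pearson r on log2 CPM of 0.88 to 0.90). Those closest to Sftpc were Sftpa1 (0.98), Sftpb (0.96), Cxcl15 (0.96), Sftpd (0.94) and Irx1 (0.94). The profiles share libraries and free RNA, so these are descriptions without a p-value.

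Lists of other genes of the same cells were counted over the whole libraries, for genes with at least 20 UMIs. The 11.5% higher and 0.951% lower given above are for genes with at least 200 UMIs, so the limits differ. Of 12 further type 2 genes, 7 were more than 2-fold higher with NPs and 0 lower, with a median log2 ratio of 1.03. The phosphate carrier gene Slc34a2 had 1813 and 6224 UMIs (1.80, 1.72 to 1.87), and Lamp3, of the lamellar bodies that store surfactant, had 553 and 1996 (1.87, 1.73 to 2.01). Abca3, which loads lipid into these bodies, had 2633 and 4275 (0.72, 0.65 to 0.79). Chil1, also a neutrophil gene in these libraries, was lower (32721 and 18351 UMIs, −0.82). Of 10 alveolar type 1 genes 7 were higher and 0 lower, with a median of 1.22, and Ager had 1885 and 4485 UMIs (1.27).

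Ciliated genes went the other way, with 7 of 10 more than 2-fold lower with NPs, 0 higher and a median of −1.33. Foxj1, the regulator of motile cilia, had 95 UMIs in the saline and 27 in the NP library (−1.80, −2.47 to −1.17), and Tmem212 had 263 and 90 (−1.53, −1.89 to −1.18). Sec14l3 hardly differed (603 and 583), and Tppp3 had 4996 and 6237 (0.34, 0.28 to 0.39).

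The club and airway secretory list was mixed. Of its 17 genes with at least 20 UMIs, 5 were more than 2-fold higher and 2 lower, with a median of 0.53. The tight junction gene Cldn10 had 280 and 73 UMIs (−1.92, −2.31 to −1.55) and the channel gene Gabrp 35 and 4. Bpifa1, a secreted protein of the upper airways, had 131 and 1302 UMIs (3.33, 3.07 to 3.60). Cbr2, a club cell reductase, had 4769 and 5477 (0.22, 0.16 to 0.27). Several of these genes are also used by other cells of the lung, as Hp is by neutrophils.

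General epithelial genes differed less, with 1 of 10 higher, 0 lower and a median of 0.51. Epcam had 823 and 1109 UMIs (0.45, 0.32 to 0.58). Of 10 epithelial regulators 8 were higher and 0 lower, with a median of 1.12, and Nkx2-1 had 177 and 459 UMIs (1.39, 1.14 to 1.65). The whole-library sums cover all cells, of which endothelial-like cells numbered 467 and 1628. Within the epithelial-like cluster, per UMI of the cluster, the median log2 ratio was 1.03 for the type 2 genes and −0.98 for the ciliated genes. For the regulators it was 0.85, with 3 of 10 more than 2-fold higher and 0 lower. Only 5 type 1 genes had at least 20 UMIs in the cluster, with 0 higher, 1 lower and a median of 0.53. The share over all genes was not counted there. Scgb1a1 alone held 198527 saline and 20505 NP UMIs of the cluster total, and the cilia-led sub-cluster 6 had 3 cells in each library. Among 10 other genes abundant in free RNA, 3 were more than 2-fold lower and 1 higher over the whole libraries, with a median of −0.83, and S100a8 and hemoglobin genes were lower with NPs. Red cells were lysed before the libraries were made.

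Macrophages take up and break down surfactant. Of 8 genes of this process, 3 were more than 2-fold higher and 1 lower over the whole libraries. Within alveolar macrophage-like cells (166 saline and 224 NP cells) none of the 8 differed by 2-fold. The share of all genes past 2-fold was not counted in this class, so nothing is read from that count. The lipoprotein lipase gene Lpl had 6532 and 9782 UMIs there, a log2 ratio of 0.01 (−0.04 to 0.05), and the cholesterol exporter gene Abcg1 had 4949 and 7153 (−0.05, −0.10 to 0.01). Pparg, a regulator of surfactant breakdown, had 281 and 552 (0.40, 0.19 to 0.61). In the same cells Scgb1a1 had 137 and 67 UMIs and Sftpc 29 and 103.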

How the data were processed

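Lung cells of tumor-bearing mice were sequenced on the 10x Genomics platform, with 1 library for saline and 1 for NP treatment. The authors deposited unfiltered matrices of raw counts, in which each count is the number of UMIs of a gene in a barcode. Per the labels the reads were demultiplexed with bcl2fastq and aligned to mm10 with Cell Ranger 6.0, whereas the file header names Cell Ranger 4. The raw matrices were not corrected for free RNA.

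Cells were filtered as the report states. Counts were scaled per cell and log transformed, and 2000 variable genes, with the 8 members left out, gave 30 principal components, 20 neighbors and Leiden clusters at resolution 1. Epithelial-like and endothelial-like cells were sub-clustered with 1000 and 2000 variable genes. Clusters were called X-like from marker lists, sub-clusters by leading genes only. A cluster stayed unnamed if it had fewer than 3 detected markers, if another class had more of its top 10 genes, or if a second class scored at least 0.75 of the first and either none of the first class's markers or several of the second's were among these genes. This left 103 saline and 132 NP cells unnamed. The part on a first class without top markers was added after the clusters had been seen and kept 12 saline (0.139%) and 57 NP cells (0.684%) out of the endothelial-like class. Cell names were rebuilt here, so differences from the study may come from them. Doublets were kept.

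Levels are UMIs per 1000000 UMIs of the same barcodes (CPM), and a ratio is the log2 of NP CPM over saline CPM, with counts under 3 set to 3. Intervals were exact Poisson, exact binomial (Clopper-Pearson) or exact conditional binomial at 95%. Likeness used log2(CPM + 1). Genes named are the members, genes of hand-written lists, the 5 genes most like Scgb1a1 and Sftpc, the 5 extreme genes at each end of free RNA, and leading genes of sub-clusters, which were named after their values were seen. The members and lists were chosen with earlier results of these data known. Calculations were tested on simulated data. Alternatives were other totals, depth and gene limits, mitochondrial limits, resolutions, doublet removal, thinning depths and equal weight per cell, with others added after seeing the data. Gene positions are from GENCODE and promoters from RefSeq.

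Clustering used scanpy 1.11.5 and leidenalg 0.10.2, intervals scipy 1.17.1 and plots matplotlib 3.10.9, run in Python 3.11.15.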

Additional observations from a re-analysis of the deposited data

Results flagged for a closer look

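Barcodes with at least 50 UMIs but under 500 detected genes, 34571 in the saline and 29423 in the NP library, were counted neither as cells nor as free RNA in the main comparisons, and entered only the depth ranges and some alternatives. They are listed because both gene groups were plainly detected in them. The club genes had 30215 and 5144 UMIs there, a log2 ratio of NP over saline of −2.51 (−2.55 to −2.46). The surfactant genes had 8563 and 16299 UMIs, a log2 ratio of 0.98. At 8245 and 1451 CPM, the club gene level in these barcodes was above that in barcodes with under 50 UMIs (4519 and 399 CPM) in both libraries. The surfactant gene level was above it in the saline (2337 against 1694 CPM) and below it in the NP library (4597 against 6342 CPM).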

How the results depend on the processing

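No paired analysis was possible because each condition had 1 library. Of 185 values recomputed, 110 stayed within the counting interval of the reported value (counts of cells within 1.5 times), 73 moved outside it and 2 changed direction. No alternative that kept all 4 genes of a group changed the direction of any of the 12 sums over gene groups. Values below are log2 ratios of NP over saline unless a share or a count of cells is named, and the cause of a shift was not tested. The 2 reversals came with Scgb1a1 left out of the club genes, chosen after seeing the data, at 0.29 in the whole library and 0.12 in B cells. With the top barcode of each library left out as well, the first returned to −0.44, so its reversal rested on 1 NP barcode. With only Scgb1a1 left out, the club genes were at −0.93 in free RNA, −0.36 in neutrophils, −0.51 in monocytes and −0.21 in endothelial cells. Scgb3a1, the most abundant gene left, had only 5 and 4 UMIs (saline and NP) in B cells and 6 and 7 in monocytes. With Scgb3a1 left out, the club genes were at −3.12, −3.62, −3.57 and −2.06 in the whole library, free RNA, neutrophils and endothelial cells. With Sftpc left out, the surfactant genes were at 1.55 and 1.97 in the whole library and free RNA and at 2.15, 2.16 and 1.59 in monocytes, B cells and endothelial cells.

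Other totals shifted the sums without changing their direction. Without S100a8, S100a9 and hemoglobin UMIs the club genes were at −3.11 (whole library) and −3.64 (free RNA) and the surfactant genes at 1.44 and 1.76. With the median gene set to 0 they were at −3.34, −3.74, 1.20 and 1.67, and the surfactant genes in neutrophils at 1.70. Without mitochondrial UMIs the surfactant genes of the whole library were at 1.59. Without the top barcode the club and surfactant sums of the whole library were at −3.27 and 1.62. For free RNA limits of under 20, under 100 and 10 to 49 UMIs, club genes were at −3.25, −3.38 and −3.73 and surfactant genes at 1.63, 1.75 and 2.09. For single members without their top barcode, added later, the ratios were −3.56 (Scgb1a1), 1.18 (Scgb3a1), −2.37 (Scgb3a2), −0.98 (Cyp2f2), 1.63 (Sftpc), 1.69 (Sftpb), 1.62 (Sftpa1) and 1.32 (Sftpd).

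Club genes in neutrophils were at −2.77 without the top cell, −2.41 with equal weight per cell, −3.62 and −3.65 with at least 200 and 800 genes, −3.17 with a 15% mitochondrial limit and −3.61 at resolution 0.5. In endothelial cells they were at −1.27 with equal weight, −0.95 and −0.48 with at least 200 and 800 genes, −0.51 with a 5% limit, −0.65 at resolution 0.5 and −0.95 without cells whose Scrublet score was over 0.25. With the cluster that the naming rule kept out counted as endothelial they were at −0.78, and a Scgb3a1 UMI was found in 17.95% and 14.8% of cells. The shared score replaced the planned doublet calls, which were not run because Scrublet's own threshold marked 0.0115% of saline cells. Surfactant genes in neutrophils were at 1.23 with equal weight. Shares of cells with a UMI rose with the depth they were counted at. For Scgb1a1 in neutrophils they were 4.49% and 0.510% at 500 UMIs and 33.9% and 4.53% without thinning (saline and NP), for Sftpc 1.28% and 4.11%, and 12.1% and 32.4%, and for Scgb3a1 in endothelial cells 5.14% and 4.67%, and 18.2% and 14.7%. Kept barcodes numbered 250 and 317 with at least 2 general epithelial markers and 74 and 82 with at least 4. The epithelial-like cluster had 26 NP cells under a 5% mitochondrial limit. The Scgb1a1-rich sub-cluster had 7 NP cells at resolution 0.5. At resolution 2 the sub-cluster with the most Sftpc had 1 saline and 15 NP cells. With 1 library per condition, depth limits the rare members most, as Cyp2f2 had 64 and 30 UMIs in free RNA.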
